A study of Mus musculus with 14 samples.

Results

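The genes described here encode enzymes that add methyl groups to lysine 4 of histone H3 (H3K4), subunits that belong to some of these enzyme complexes, and enzymes that remove the methyl groups. They comprised 10 genes, namely Kmt2a, Kmt2b, Kmt2c, Kmt2d, Setd1a and Setd1b (methyltransferases), Men1 and Cxxc1 (subunits), and Kdm1a and Kdm5b (demethylases). A site of the H3K27ac list was assigned to a gene if it overlapped, by at least 1 bp, the gene body or the 5 kb upstream of the outermost annotated 5′ end. By this rule 47 of the 122228 sites (0.0385%) were found, and 9 of the 10 genes had at least 1. Men1 had 0.

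The sites came from immortalised mouse embryo fibroblasts (iMEF) studied by chromatin immunoprecipitation followed by sequencing (ChIP-seq) with an antibody against histone H3 acetylated at lysine 27 (H3K27ac), which marks active promoters and enhancers. Control cells received no dTAG, and treated cells were exposed to it over 5 periods (30 min as well as 2, 4, 8 and 16 h), with 2 H3K27ac libraries per group (12 in all) and 1 input library each for control and 16 h. All groups carried, from a lentiviral construct, human ASH2L with an N-terminal FKBP12F36V tag in place of endogenous Ash2l with floxed alleles that had been deleted through Cre-ER. The cells belonged to a single clone, NG3. dTAG leads to degradation of the tagged ASH2L, a core subunit of all KMT2 and SETD1 complexes. The list joined the sites of all samples without any measurement for individual samples. Thus the read depth behind a site is unknown, no replicate error can be given, and dTAG-treated and control cells cannot be told apart. All values below therefore describe where sites lay in at least 1 of these samples, and no test was carried out.

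H3K4 methylation is written by SET domain enzymes that work in complexes with the shared core WDR5, RBBP5, ASH2L and DPY30. SETD1A and SETD1B account for much of the trimethylation (H3K4me3) at promoters, KMT2A and KMT2B act at subsets of promoters together with menin (encoded by Men1), and KMT2C and KMT2D monomethylate H3K4 at enhancers. CXXC1 (CFP1) binds unmethylated CpG dinucleotides and belongs to the SETD1 complexes. KDM1A (LSD1) removes mono- and dimethylation, and KDM5B (JARID1B) removes di- and trimethylation of H3K4.

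As a check of the cell type, the outermost 5′ end lay in a site for 6 of 8 fibroblast genes (Col1a1, Col1a2, Col3a1, Fn1, Vim and Pdgfrb, but not Thy1 and Pdgfra), whereas it did so for 1 of 8 genes of other cells (Cd68, but not Cdh1, Epcam, Krt8, Ptprc, Pecam1, Cdh5 and Pou5f1), compared to 36.5% of all protein-coding genes. Elsewhere in the gene or upstream, however, 6 of these 8 had a site, including 15 at Cdh1 and 9 at Pecam1, nearly all of them intronic. Chromosomes 1 to 19 and X held 122171 of the sites, with a median width of 401 bp, and these chromosomes with their 21755 protein-coding genes served as the background for all counts.

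The sequences in front of the start sites show how different the promoters of these genes are in base composition. RefSeq promoter windows (build GRCm38) were given for 7 of the 10 genes, and there was none for Kmt2b, Setd1b and Cxxc1. Men1 had 3 such windows, of which only the one with its start at the outermost 5′ end was used. The 200 bases before the RefSeq start are printed 5′ to 3′ on the strand of the gene for 6 of them. Capitals mark GGGCGG or its complement (SP/KLF factors) and CCAAT or its complement. The windows were chr9:44881290-44881489 (minus strand) for Kmt2a, chr5:25498784-25498983 (minus strand) for Kmt2c, chr15:98871206-98871405 (minus strand) for Kmt2d, chr19:6334779-6334978 (plus strand) for Men1, chr4:136602724-136602923 (minus strand) for Kdm1a and chr1:134559978-134560177 (plus strand) for Kdm5b.
Kmt2a: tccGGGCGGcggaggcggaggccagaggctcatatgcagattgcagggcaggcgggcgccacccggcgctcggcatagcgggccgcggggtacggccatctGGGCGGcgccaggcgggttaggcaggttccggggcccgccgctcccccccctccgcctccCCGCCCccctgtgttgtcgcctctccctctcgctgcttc
Kmt2c: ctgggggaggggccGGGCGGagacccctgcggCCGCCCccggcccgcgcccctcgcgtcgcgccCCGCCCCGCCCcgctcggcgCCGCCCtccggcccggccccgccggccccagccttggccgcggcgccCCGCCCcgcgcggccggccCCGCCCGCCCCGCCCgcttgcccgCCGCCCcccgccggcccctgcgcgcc
Kmt2d: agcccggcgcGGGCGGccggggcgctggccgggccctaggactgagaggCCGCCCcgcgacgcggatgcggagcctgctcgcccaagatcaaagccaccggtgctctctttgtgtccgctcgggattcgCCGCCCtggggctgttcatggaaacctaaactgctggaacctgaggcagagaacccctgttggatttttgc
Men1: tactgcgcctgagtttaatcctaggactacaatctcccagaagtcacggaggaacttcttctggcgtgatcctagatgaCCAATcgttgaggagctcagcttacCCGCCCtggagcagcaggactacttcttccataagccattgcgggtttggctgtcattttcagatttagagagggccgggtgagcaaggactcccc
Kdm1a: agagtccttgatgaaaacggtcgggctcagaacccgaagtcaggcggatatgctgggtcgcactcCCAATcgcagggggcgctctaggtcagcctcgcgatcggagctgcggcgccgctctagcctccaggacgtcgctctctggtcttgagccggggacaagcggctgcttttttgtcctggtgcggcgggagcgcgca
Kdm5b: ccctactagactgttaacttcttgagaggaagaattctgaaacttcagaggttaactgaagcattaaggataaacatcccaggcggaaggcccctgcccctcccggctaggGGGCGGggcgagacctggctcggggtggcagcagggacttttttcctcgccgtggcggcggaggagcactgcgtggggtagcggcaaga
The bases before Kmt2c were almost all G or C (92.5%, with 39 CpGs), and those before Men1 had the lowest GC content of the 6 (52.5%, with 7 CpGs). Kmt2a (76.0%), Kmt2d (67.0%), Kdm1a (64.5%) and Kdm5b (59.0%) lay between them. In the full windows of 300 bases (250 before and 50 after the start), GGGCGG was found at 5 of the 7 genes, with 12 matches at Kmt2c, 5 at Kmt2a, 4 at Kmt2d and 1 each at Men1 and Kdm5b, compared to 35.9% of all 32619 windows with a match. CCAAT was found at Men1 and Kdm1a, compared to 37.6% of all windows. All windows were not matched in GC content to those of the 7 genes (53.3 to 88.0%), and GGGCGG contains only G and C. The letters of 5 other motifs had 0 matches in the 7 windows on either strand. These were ETS (CCGGAAG), NRF1 (GCGCATGC), CRE (TGACGTCA), YY1 (AAGATGGC) and E-box (CACGTG), which were present in 8.92%, 2.72%, 1.80%, 2.76% and 7.20% of all windows, respectively. The windows of Kmt2c, Kmt2d and Setd1a lay completely in an H3K27ac site. Of the 300 bases, 288 did so at Kdm5b, 217 at Kmt2a, 135 at Kdm1a and 0 at Men1.

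The first question was whether the 5′ ends of the genes carried H3K27ac. The outermost 5′ end lay inside a site for 8 of the 10 genes, that is for all 6 methyltransferases and both demethylases, but not for the subunits Men1 and Cxxc1. Among protein-coding genes this was the case for 36.5%, as given above, and for 57.3% of the 12062 genes that, like all 10 genes here, had a CpG island (CGI) within 1 kb of the 5′ end. The 8 sites measured 1246 to 4125 bp with a median of 2509 bp, compared to a median of 1307 bp (quartiles 871 and 1894 bp) for the 7931 coding genes with a site at this place, and 7 of the 8 were above that median. They reached a median of 758 bp upstream and 1837 bp downstream of the 5′ end, compared to 351 and 880 bp for coding genes. The downstream part was the longer one in 7 of 8 genes, with Kmt2b as the exception, and in 81.4% of coding genes. The map of the 5′ ends shows these sites with the CGIs and the annotated transcription start sites (TSSs).

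**Figure D1:**
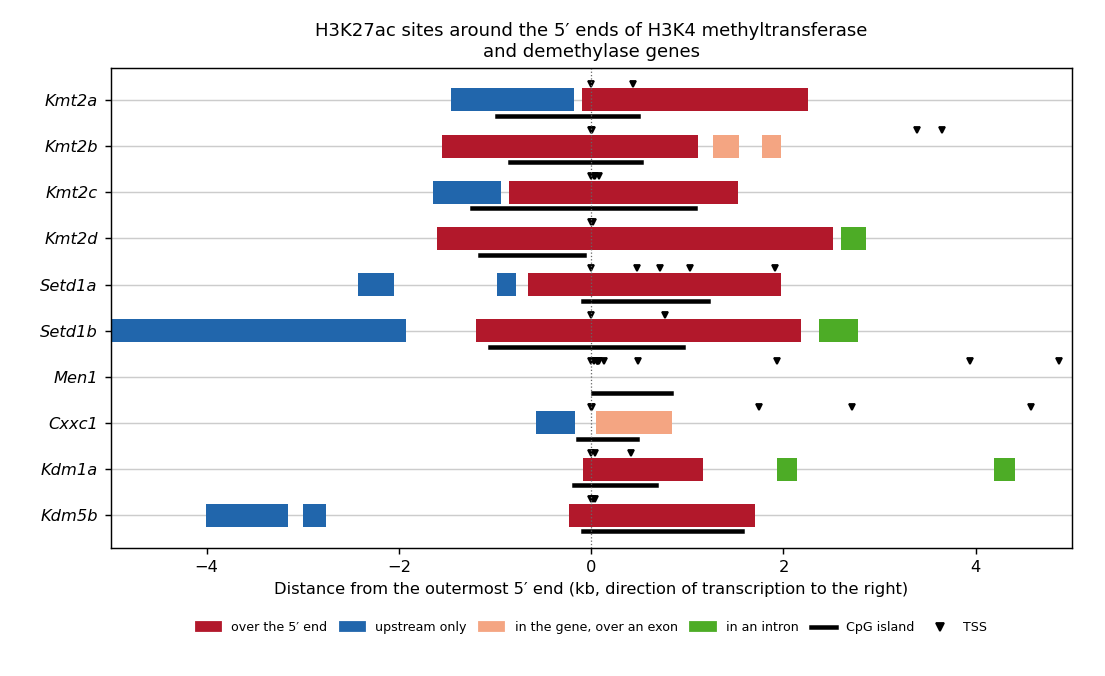
H3K27ac sites (bars) within 5 kb of the outermost 5′ end (0 on the horizontal axis, in kb, transcription to the right) of the 10 genes, with CGIs as black lines below and TSSs as triangles above each row. Red bars cover the 5′ end in 8 genes, Cxxc1 has a site on either side of it and Men1 has 0 sites; the bar upstream of Setd1b is cut at the edge and goes on to 8500 bp upstream.

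KMT2A and KMT2B are sister enzymes that both carry a CXXC domain, and their genes differed in the place of the site relative to the 5′ end. Kmt2a (chr9:44803355-44881296, minus strand, 77942 bp) had a 2350 bp site from 96 bp upstream of the 5′ end to 2253 bp downstream, over exon 1 and into intron 1. A second site of 1275 bp covered the bases from 1454 to 180 bp upstream, so that only 83 bp separated the sites, and the TSS of the neighbour AC061963.1 lay in this second site. Kmt2b (chr7:30568858-30588726, minus strand, 19869 bp) had a single site of 2658 bp over the 5′ end that reached 1549 bp upstream and 1108 bp downstream and held the TSS of the microRNA gene Mir3569. Upstream cover was thus longer than at 95.8% of coding genes with a site at the 5′ end for Kmt2b and longer than at 32.2% for Kmt2a, if counted for the site at the 5′ end alone. The other Kmt2b sites, of 269 and 200 bp, followed at 1267 and 1776 bp downstream and lay over exon 2 and within exon 3.

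The genes of the enhancer enzymes KMT2C and KMT2D both had wide promoter sites. Kmt2c (chr5:25271798-25498783, minus strand) was the longest of the 10 genes with 226986 bp and had 3 sites. Its site at the 5′ end measured 2385 bp, from 859 bp upstream to 1525 bp downstream, and held the TSS of 4831440E17Rik. After a gap of 79 bp a site of 711 bp followed upstream. Kmt2d (chr15:98831669-98871204, minus strand, 39536 bp) had the widest 5′ site of the 10 genes (4125 bp, from 1606 bp upstream to 2518 bp downstream), wider than that of 96.8% of coding genes with a site there. It held the TSSs of 5730414N17Rik and Gm49437, and overlapped exon 1, which is annotated as UTR, and intron 1. A further 3 of the 5 Kmt2d sites (351, 263 and 1409 bp) lay over the last exon, exon 55, where 2 of them had their middle within 1 kb of a TSS of the neighbour Prkag1, a subunit gene of the AMP-activated kinase. The 1409 bp site held this TSS. These 2 sites therefore cannot be assigned to Kmt2d rather than Prkag1.

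SETD1A and SETD1B are the catalytic subunits of complexes that contain CXXC1. Setd1a (chr7:127776670-127800122, plus strand, 23453 bp) had a site of 2633 bp from 657 bp upstream to 1975 bp downstream that overlapped exons 1 to 3. Smaller sites of 202 and 372 bp lay upstream, and a site of 206 bp in the 3′ UTR was near TSSs of Hsd3b7 and Gm49388. Setd1b (chr5:123142193-123168629, plus strand, 26437 bp) had a site of 3380 bp from 1194 bp upstream to 2185 bp downstream, over exons 1 to 4. The widest site of all 47, with 6571 bp, covered the bases from 8500 to 1930 bp upstream of Setd1b. It thus began outside the 5 kb and held TSSs of 4932422M17Rik, AI480526 and Gm38102, and another TSS of AI480526 lay in the site at the 5′ end of Setd1b. With it, 24.6% of the Setd1b region lay in sites, the highest share of the 10 genes, compared to a median of 10.3% for the 10 genes. The median was 2.90% for all coding genes, 6.27% for those with a CGI and 8.97% for those with the 5′ end in a site.

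The subunit genes Men1 and Cxxc1 were the shortest of the 10 (5913 and 5373 bp) and the only ones without a site over the 5′ end. At Cxxc1 (chr18:74216124-74221496, plus strand) a site of 406 bp ended 172 bp upstream, and a site of 794 bp over exon 1 began 52 bp downstream. The 5′ end therefore lay in a gap of 223 bp between them. Such a place between 2 sites, each within 500 bp, was found for 7.96% of coding genes. Counted with a distance of 100 or 500 bp allowed, the number of genes with a site at the 5′ end rose from 8 to 9, through Cxxc1.

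At Men1 (chr19:6334979-6340891, plus strand) the list held 0 sites in the gene and the 5 kb upstream, although a CGI of 810 bp began 18 bp downstream of the 5′ end. In all, 36.0% of coding genes and 13.3% of those with a CGI had 0 sites. The empty stretch around Men1 was much longer than the gene. The nearest sites were 193 kb upstream and 499 kb downstream, and the 698 kb between them (chr19:6141862-6839909) held 13 coding genes, 10 of them with a CGI, and 0 sites. The neighbours in this stretch, named after the values were seen, included Map4k2, which starts just after Men1, and Sf1, which encodes the splicing factor SF1. Across the list there were 4 such stretches of at least 200 kb with 10 or more CGI genes, on 3 chromosomes and with 43 CGI genes in all. It is not known whether the list as used here is complete in such stretches, and whether Men1 carried H3K27ac in these cells cannot be told from it.

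Of the demethylase genes, Kdm1a (chr4:136550540-136602723, minus strand, 52184 bp) had the highest number of sites, 11, and the narrowest site over a 5′ end. The latter measured 1246 bp, from 85 bp upstream to 1160 bp downstream, and was wider than at 46.5% of coding genes with a site there. Kdm5b (chr1:134560171-134635285, plus strand, 75115 bp) had 6 sites. Its 5′ end was covered by a site of 1931 bp, from 231 bp upstream to 1699 bp downstream. Sites of 245 and 856 bp lay 2758 to 4010 bp upstream of Kdm5b, away from annotated TSSs of other genes, and the wider one had a GC content of 64.7% and overlapped a CGI. Thus at both demethylase genes the site over the 5′ end reached farther downstream than upstream. This was so at 7 of the 8 genes and at 81.4% of coding genes with a site there. The plot of widths sets the 8 sites beside those of all coding genes.

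**Figure D2:**
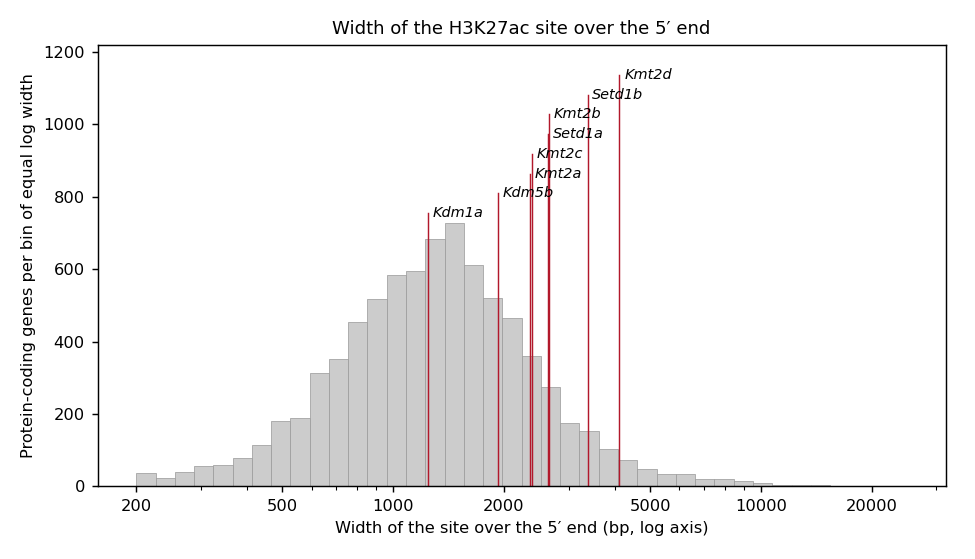
Width of the H3K27ac site over the 5′ end (bp, log axis) for 7931 protein-coding genes (grey bars, number of genes per bin) and for the 8 genes described here (red lines). Kdm1a lies near the centre of the grey distribution at 1246 bp, and the 6 methyltransferase genes lie between 2350 and 4125 bp, in its right part.

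Sites near a 5′ end were often divided by short gaps. Another site lay within 500 bp of the site at the 5′ end at all 6 methyltransferase genes and at neither demethylase gene, compared to 50.4% of coding genes with a site at this place. The gaps on the upstream side measured 79 bp at Kmt2c, 83 bp at Kmt2a and 125 bp at Setd1a. On the downstream side they measured 84 bp at Kmt2d, 158 bp at Kmt2b and 188 bp at Setd1b. The split between methyltransferase and demethylase genes depends on the limit of 500 bp, which was not varied. At Kdm1a the next site followed after 777 bp, and at Kdm5b the nearest lay 2526 bp upstream. Sites that lay completely upstream numbered 8 and were found at 6 genes, compared to 29.5% of coding genes. The widest promoter site (middle within 1 kb of a TSS) had a median width of 2385 bp over 9 genes, compared to 1141 bp over the 11908 coding genes with such a site. If sites less than 1 kb apart were merged, the 47 sites became 28, and this median was 3067.5 bp over 8 genes, compared to 1615.5 bp over 11030 coding genes. Setd1b dropped out, since the middle of its merged site was farther than 1 kb from its TSSs.

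All 10 genes had a CGI within 1 kb of the 5′ end, compared to 55.4% of coding genes, and it covered the base of the 5′ end itself in 8 of them. The exceptions were Men1 and Kmt2d, where the CGI of 1088 bp ended 70 bp upstream. The CGIs were 611 to 2314 bp wide, with a GC content between 65.2% at Men1 and 74.3% at Kdm1a. Their observed to expected CpG ratio, in which 1 is the number expected from the C and G content, was lowest at Men1 (0.698) and highest at Cxxc1 (1.14). H3K27ac sites covered the CGIs of Kmt2b, Kmt2d, Setd1a, Setd1b and Kdm5b completely. The cover was 96.6% at Kmt2c, 94.3% at Kmt2a, 88.6% at Kdm1a, 68.9% at Cxxc1 and 0 at Men1. The uncovered CGI bases of Kmt2a and Kmt2c corresponded in number to the gaps of 83 and 79 bp between their sites.

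The next question was whether internal TSSs, taken as those more than 500 bp downstream of the outermost 5′ end, carried sites. All 10 genes had internal TSSs in the annotation, 36 in total. Only 4 of them, at 2 genes, lay in a site, compared to 22.2% of the internal TSSs of coding genes and 27.9% of the coding genes that have any. At Setd1a, 3 of 3 internal TSSs were covered, at 719, 1025 and 1907 bp from the 5′ end, and at Setd1b 1 of 3, at 764 bp. In every case it was the wide site over the 5′ end that reached them, so that there was no separate site for an internal promoter. The RefSeq window of Setd1a belonged to the TSS at 719 bp, which is shared by 2 protein-coding transcripts. When only TSSs more than 1 kb downstream were considered, 2 remained, both at Setd1a.

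The other 32 internal TSSs had no site. A split at 2 kb from the 5′ end was chosen after the values were seen. Within 2 kb lay 6 internal TSSs of 4 genes, of which 4 were in a site, compared to 54.2% of the internal TSSs of coding genes at this distance. Beyond 2 kb lay 30, of which 0 were in a site, compared to 15.1%. Of these 30, 1 was within 1 kb of a site, namely a Kdm1a TSS of a protein-coding transcript at 34116 bp, 953 bp from the nearest site. The 4 distant TSSs of Kmt2c, at 190233 to 217383 bp, were 58072 to 85222 bp away from any site. The internal TSS of Kmt2b at 3386 bp had its nearest site 1411 bp away. Of the 30 distant TSSs 22 belonged to transcripts that are not protein-coding.

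Intronic sites, which overlapped no exon of any transcript of the gene, numbered 19 and were found at 6 of the 10 genes. The share was 33.6% over coding genes of all lengths, with and without any site. Among coding genes with the 5′ end in a site it depended on length, with 12.9% below 10 kb and 42.0% at 10 to 30 kb. It was 66.7% at 30 to 60 kb, 83.6% at 60 to 100 kb and 95.4% above 100 kb. The 10 genes were spread over all of these classes. Kdm1a had 8 of them (42.1%), Kmt2a 4, Kdm5b 3, Setd1b 2, and Kmt2c and Kmt2d 1 each. Kmt2b, Setd1a, Men1 and Cxxc1 had 0. Intronic sites were narrow, with 200 to 989 bp and a median of 257 bp, and 13 of the 19 were below 300 bp, compared to 37.8% of the 55322 intronic sites of coding genes (median 359 bp). None of the 19 had its middle within 1 kb of a TSS of the gene, and 11 of them lay in intron 1 of the transcript with the longest coding sequence.

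Since long genes have more room for intronic sites, each gene was set beside coding genes of the same length class whose 5′ end lay in a site. Kdm1a exceeded 88.6% of the 1521 genes of 30 to 60 kb, whose median was 1 intronic site, and Kmt2d was at this median. Of the 8 Kdm1a sites 6 belonged to the narrowest 25% of the list, and without these the 2 left exceeded 61.2% of the class and were below its upper quartile of 3. Kmt2a with 4 and Kdm5b with 3 were near the median of 4 in the class of 60 to 100 kb. Kmt2c was at the other end. Its single intronic site, of 280 bp at 26475 bp from the 5′ end, compares to a median of 11 (quartiles 4 and 26) for the 1076 genes above 100 kb, of which 4.55% had fewer. With 3 sites in a region of over 200 kb, Kmt2c had 0.129 sites per 10 kb. The other 8 genes with a site had 0.749 to 1.93 per 10 kb, and coding genes with the 5′ end in a site had a median of 1.15. These were genes of all lengths, and the density was not compared within length classes. By number, the median was 14 sites per gene for the class above 100 kb. The shorter genes Setd1b (2, compared to a class median of 0), Kmt2b and Setd1a (both 0) fell in the class of 10 to 30 kb, where 42.0% of genes had an intronic site.

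**Figure D3:**
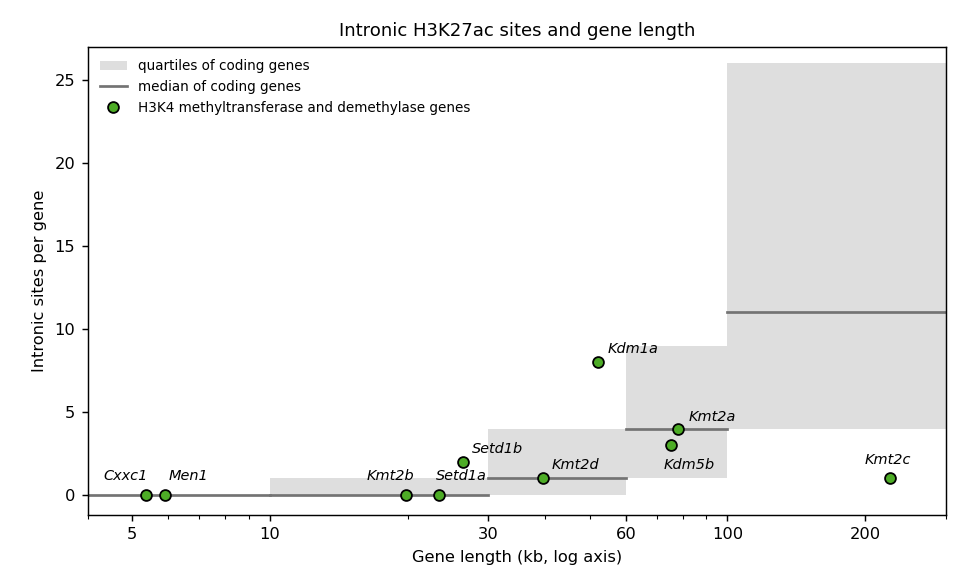
Number of intronic H3K27ac sites per gene (vertical axis) and gene length (kb, log axis) for the 10 genes (points), with the median (grey line) and quartiles (grey area) of protein-coding genes of the same length class whose 5′ end lies in a site. Kdm1a with 8 lies above the quartiles of its class, which it does not if the narrowest 25% of the list are left out (2 sites), and Kmt2c with 1 lies below those of genes over 100 kb.

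The intronic sites of Kdm1a were spread over the gene. In intron 1 there were 4, of 200, 217, 202 and 887 bp, between 1938 and 8563 bp from the 5′ end. The others were in intron 2 (201 bp), intron 8 (262 bp), intron 9 (521 bp) and intron 12 (213 bp), the last at 43755 bp. In addition, a site of 362 bp lay over exon 3 and a site of 852 bp over exon 8, which are coding exons. Together the 8 intronic sites covered 2703 bp. At Kdm5b, in contrast, the 3 intronic sites (200, 989 and 447 bp) lay close together in intron 1, between 20728 and 23716 bp, and the last pair was separated by 67 bp. The remaining 51398 bp of Kdm5b had 0 sites.

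At Kmt2a, 2 intronic sites (200 and 257 bp) lay in intron 1 at 8660 and 14087 bp, and 2 more lay in introns 10 (200 bp at 44378 bp) and 20 (409 bp at 53492 bp). The latter was part of a group in the second part of the gene with a site of 329 bp over exon 16 and one of 453 bp over exon 21, out of 36 exons. At Setd1b the intronic sites lay in introns 4 (407 bp) and 6 (203 bp), and the second was separated by 183 bp from a site of 667 bp over a non-coding exon of another transcript. The intronic site of Kmt2d, of 259 bp, followed its 5′ site after 84 bp. When sites less than 1 kb apart were merged, the number of intronic sites was 10. Without the narrowest 25% of the list it was 7, and it was 28 if only the middle of a site had to lie in an intron.

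**Figure D4:**
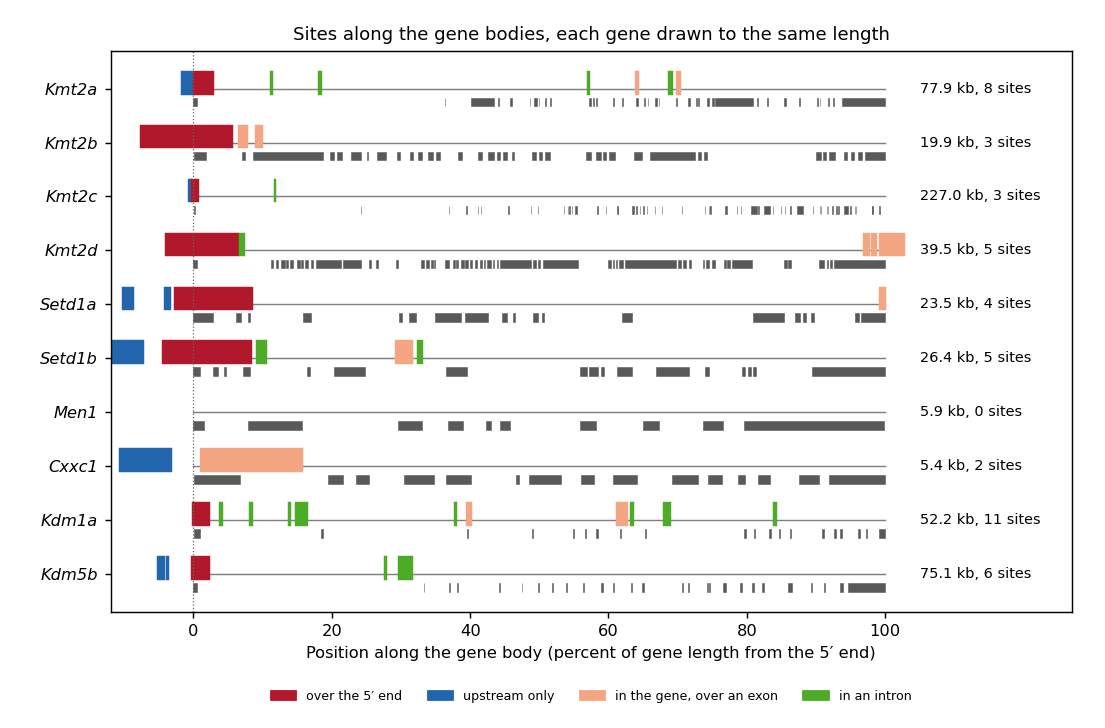
Sites (coloured bars) along the 10 gene bodies, each drawn to the same length (horizontal axis, percent of gene length from the 5′ end), with the exons of the transcript with the longest coding sequence in grey below. Sites gather at the 5′ end, only Kdm1a and Kmt2a have sites spread beyond 50% of the gene, and 2 of the 3 sites near the end of Kmt2d and the one at the end of Setd1a are close to a TSS of a neighbour; bars are cut 12% upstream and 3% downstream of the gene, and narrow bars are widened by their outline.

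Base composition, CGI overlap and repeat content were compared only among the sites of these genes, and not with the sites of all coding genes. The observed to expected CpG ratio was 0.502 to 0.990 (median 0.709) for the 8 sites over a 5′ end, and 0.0558 to 0.455 (median 0.181) for the 19 intronic sites. GC content was 58.6 to 68.2% (median 62.4%) in the former and 41.8 to 58.7% (median 49.5%) in the latter. A CGI was overlapped by all 8 sites over a 5′ end and by 0 of the 19 intronic sites. Since all 10 genes had a CGI within 1 kb of the 5′ end, the former count was largely fixed in advance. The intronic sites were also narrower, so that each of their ratios rests on fewer bases. Of the 12 sites over exons 3 overlapped a CGI, and of the 8 upstream sites 4 did so. Repeat sequence made up more than 40% of the bases in 8 of the 19 intronic sites, up to 75.1% at the Kmt2a site in intron 20. In each single site over a 5′ end it made up at most 20% of the bases.

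**Figure D5:**
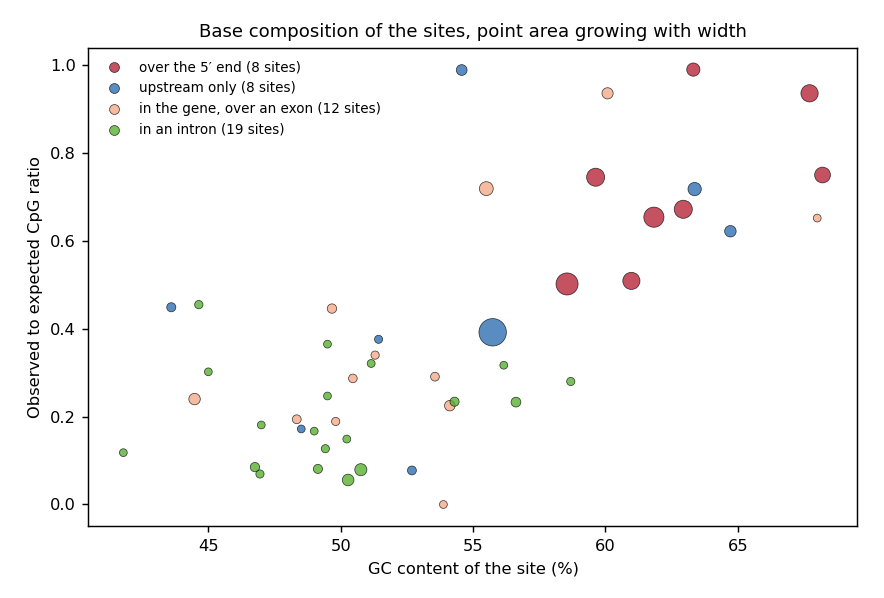
GC content (horizontal axis, %) and observed to expected CpG ratio (vertical axis) of the 47 sites, with point area growing with site width and colour giving the class. Sites over the 5′ end (red) lie at ratios of 0.502 and above, and intronic sites (green) at 0.455 and below.

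The middle 200 bases of the 19 intronic sites held 0 to 5 CpGs (median 2), compared to 2 to 29 (median 21) for the 8 sites over a 5′ end. The 3 widest intronic sites are shown as examples, of which the first and the second are more than 60% repeat sequence and among the lowest of the 19 in CpG ratio. Printed are 200 bases around the middle of the widest sites of Kdm5b (989 bp, intron 1, chr1:134582780-134582979, plus strand) and Kdm1a (887 bp, intron 1, chr4:136594504-136594703, minus strand) and of the Kdm1a site in intron 9 (521 bp, chr4:136566940-136567139, minus strand), in build GRCm38, 5′ to 3′ on the strand of the gene, with CpGs in capitals.
Kdm5b intron 1: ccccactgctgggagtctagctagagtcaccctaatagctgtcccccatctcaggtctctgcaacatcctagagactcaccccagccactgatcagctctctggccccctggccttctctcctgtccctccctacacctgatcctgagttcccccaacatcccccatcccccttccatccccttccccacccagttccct
Kdm1a intron 1: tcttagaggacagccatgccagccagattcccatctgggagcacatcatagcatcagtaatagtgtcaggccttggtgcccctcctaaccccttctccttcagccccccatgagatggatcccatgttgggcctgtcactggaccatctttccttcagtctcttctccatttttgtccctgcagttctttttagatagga
Kdm1a intron 9: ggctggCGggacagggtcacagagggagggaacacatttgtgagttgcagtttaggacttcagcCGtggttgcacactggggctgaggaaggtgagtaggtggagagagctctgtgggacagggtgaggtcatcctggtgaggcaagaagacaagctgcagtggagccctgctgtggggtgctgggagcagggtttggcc
The first 2 windows had 0 CpGs, as had 3 of the 19 in all, and the third had 2. The promoter sequences above, which were of the same length, had 7 to 39. The AP-1 motif is bound by FOS and JUN factors and is common in fibroblast enhancers. It was searched as TGANTCA, with any base allowed at N, which is looser than the AP-1 consensus. In the middle 200 bases of the 19 intronic sites these letters were found in 1, compared to 8.19% of the 55322 intronic sites of coding genes. The match, with A at N, lay in the Kdm1a site of 217 bp in intron 1 (middle window chr4:136598324-136598523, minus strand, with 4 CpGs). It is shown in capitals, and binding of AP-1 to it was not tested.
Kdm1a intron 1, AP-1: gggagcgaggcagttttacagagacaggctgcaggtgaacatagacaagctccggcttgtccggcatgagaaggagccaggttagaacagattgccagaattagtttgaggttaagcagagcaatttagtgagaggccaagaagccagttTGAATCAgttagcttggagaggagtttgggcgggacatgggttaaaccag
The middle 200 bases of the 8 sites over a 5′ end had 0 such matches, compared to 3.14% of the 7236 sites of this kind. In the same windows GGGCGG was found at Kmt2a, Kmt2b, Kmt2c, Setd1b and Kdm5b (39.2% of the 7236), CCAAT at Kmt2d (13.4%) and AAGATGGC, the YY1 motif, at Kmt2c and Kdm1a (1.92%), while the ETS, NRF1, CRE and E-box letters had 0 matches (7.93%, 1.23%, 0.940% and 4.49%).

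By class, the 47 sites comprised 8 over a 5′ end, 8 upstream, 12 over exons and 19 in introns. They covered 44055 bp in total, of which the 8 sites over a 5′ end made up 47.0%. The median width of the 47 sites was 406 bp, close to that of the whole list. A width of exactly 200 bp was found for 5 of them, compared to 5.77% of the list, and 17 belonged to the narrowest 25% of the list. TSSs of other genes lay in, or within 1 kb of the middle of, 9 of the 47 sites. In relation to the limit of 5 kb, the farthest site completely inside was that of Kdm5b (856 bp, from 4010 bp upstream), and the nearest beyond it were at 5638 bp upstream of Setd1a (1947 bp wide), 6945 bp upstream of Kdm5b (364 bp) and 8357 bp upstream of Cxxc1 (321 bp).

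Finally, the other genes of the H3K4 methylation machinery were counted in the same way. Of 16 such genes 15 had a site, whereas 36.0% of coding genes and 13.3% of those with a CGI had 0 sites. A CGI was found at 12 of the 15 genes that were searched for one. The 5′ end lay in a site for 10 of the 16, compared to 36.5% of coding genes and 57.3% of those with a CGI. Among the genes of the core subunits it did so for Wdr5 and Rbbp5 but not for Ash2l and Dpy30, whose annotated outermost 5′ ends lay outside while 7 of 10 and 5 of 5 of their internal TSSs lay in a site. For the endogenous mouse Ash2l gene, the widest promoter site measured 1756 bp. The dTAG system acts on the tagged human ASH2L of the lentiviral construct, not on a product of this gene. Of 8 genes of subunits found in some of the complexes (Wdr82, Hcfc1, Psip1, Paxip1, Pagr1a, Ncoa6, Kdm6a and Bod1l), 7 had the 5′ end in a site, with Kdm6a, an H3K27 demethylase gene, as the exception. Of the other demethylase genes (Kdm1b, Kdm5a, Kdm5c and Kdm5d) it was only Kdm5a, with a site of 2588 bp, compared to widest promoter sites of 821 bp at Kdm1b and 1097 bp at Kdm5c. Kdm5d lies on the Y chromosome, where the list had 0 sites. The median of the widest promoter site was 1489 bp for the core subunits, 1768 bp for the subunits of some complexes and 1097 bp for the other demethylases, compared to 2385 bp for the 9 of the 10 genes with such a site.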

How the data were processed

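H3K27ac ChIP-seq was performed on 12 libraries of 6 groups, with 2 input libraries. According to the methods and the submitters' processing notes, the authors used Trim Galore for trimming, BWA for alignment to mm10 (GRCm38), SAMtools for filtering, Picard to merge replicates, and MACS2 for narrow peaks. The MACS2 threshold was not given in the sources used here. Peaks of all samples were joined, in a way not stated. The deposited list had the chromosome, start and end of each site, which are genome positions in base pairs and the only values used, and no read count, score or sample label. Merging may have widened sites, and time points cannot be separated.

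Starts were read as counted from 0, so that the narrowest site measured 200 bp, and are printed counted from 1. Genes and TSSs were from GENCODE release 21 for mouse (M21), an earlier release than that of the authors, and the sequence was GRCm38.p6. CGIs were called from repeat-masked sequence as runs of CpGs (scored 17, other bases -1) of at least 200 bp, 50% GC and an observed to expected ratio of 0.6, which gave 17060. A promoter site had its middle within 1 kb of a TSS. Motifs were searched on both strands, and GGGCGG matches can overlap each other. The genes named are the 10 members of the list, fixed lists of their pathway and markers, and neighbours with a TSS in or within 1 kb of a member's site, beside 2 neighbours of Men1 (Map4k2 and Sf1) chosen after the values were seen. The members and all lists were chosen with earlier results of these data known. The self-test recovered all planted sites and CGIs in simulated data. Python 3.11.15, numpy 2.4.6, pandas 2.3.3, numba 0.67.0 and matplotlib 3.10.9 were used. Alternatives comprised other windows, merging of sites and omission of the narrowest 25%.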

Additional observations from a re-analysis of the deposited data

How the results depend on the processing

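Of 33 alternatives to the 7 counts and widths, 27 left the value within 1.5 times of that reported (for the median width of 2385 bp, within 1 SD, 1011.8 bp, of the 9 widths), and 6 did not. Without the narrowest 25% of the list, the 47 sites became 30 and the 19 intronic sites became 7, with Kdm1a going from 8 to 2. With sites less than 1 kb apart merged, they became 28 and 10. With internal TSSs taken from 1 kb in place of 500 bp downstream, 2 TSSs at 1 gene lay in a site in place of 4 at 2 genes. Each of these alternatives removes or joins sites or TSSs by its construction. The narrowest 25% of the list held 17 of the 47 sites. The median width of the intronic sites was 257 bp, compared to 359 bp for those of coding genes. Why these counts fell as far as they did was not tested. The intronic sites rose from 19 to 28, still within 1.5 times, when only the middle of a site had to lie in an intron. The number of genes with the 5′ end in a site was 8 or 9 in the 5 alternatives tried. No paired analysis was possible because the sites carried no measurement for individual samples, and replicates could not be left out for the same reason. Read depth and the completeness of the list are unknown, so that the absence of a site at Men1 or in an intron gives no limit on its acetylation. Widths may exceed those of any single sample, and the annotation decides which base is the 5′ end.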
